A study of Mus musculus with 4 samples.

Results

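The cells described here are hematopoietic stem and progenitor cells (HSPCs) of mouse bone marrow in which a transcript of Flt3 was detected. They were chosen by their own counts: a kept cell was a member if it held at least 1 unique molecular identifier (UMI, 1 captured RNA molecule) of Flt3 and none of Slamf1, Procr or Dntt. In all, 800 of 14915 kept cells met this rule. Their label, Flt3-positive multipotent progenitors, goes against the sort that gave the cells, which kept Lin- Sca1+ cKit+ cells negative for surface Flt3, so they are called Flt3 transcript-positive cells below.

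The HSPCs came from male C57BL/6-CD45.2 mice, young (2 to 3 months) or aged (17 to 18 months), with bone marrow pooled from 2 or 3 mice for each library. One young and one aged pool (young A and aged A) were captured and sequenced at one facility, and the other pair (young B and aged B) at another. All animals were untreated and carried no named mutation. A pool is the unit of replication, with n = 2 per age, and the pools of one letter share a batch. The free-text descriptions of young B and aged A name the other age, whereas their titles and source names give the age used here. The kept cells held 36446168 UMIs in young A, 16399999 in young B, 20788935 in aged A and 33286187 in aged B.

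Flt3 encodes a receptor tyrosine kinase that binds Flt3 ligand and signals through STAT5, PI3K-AKT and RAS-MAPK. Among Lin- Sca1+ cKit+ cells its surface protein marks lymphoid-primed multipotent progenitors, which have lost long-term self-renewal and retain lymphoid and myeloid potential. Slamf1 encodes CD150 and Procr encodes EPCR, both used to isolate hematopoietic stem cells (HSCs), and Dntt encodes the terminal transferase of early lymphoid progenitors. In the GRCm38 annotation, Flt3 lies on chromosome 5 from 147330741 to 147400489 on the minus strand.

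Members were unevenly spread over the pools. Young A gave 608 members, young B 96, aged A 71 and aged B 25, so that 76.0% of all members came from young A. As shares of kept cells these were 11.7% in young A (95% exact binomial interval 10.9 to 12.6), 4.28% in young B (3.48 to 5.20), 2.13% in aged A (1.67 to 2.68) and 0.602% in aged B (0.390 to 0.887), intervals that cover counting error only. Both young pools lay above both aged pools, and the 2 young pools differed from each other by more than young B differed from aged A. The aged mean was 6.63 percentage points below the young mean. A two-sided exact permutation test gave p = 0.333, the smallest value that 2 pools against 2 allow. Within the A pair the young share was 5.49 times the aged one, and within the B pair 7.11 times.

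Depth was not the same in every pool, with a median of 6075 UMIs per kept cell in young A, 6284 in young B, 5674 in aged A and 6719 in aged B. The paper gives more reads per cell for aged A and young B than for young A and aged B. Read depth thus differed between the ages within each letter, and pairing by letter does not balance it. With each cell thinned to 3000 UMIs (230 shallower cells left out) the shares were 8.74%, 3.04%, 1.84% and 0.428% in the same order. The order of the pools stayed as it was. Without the exclusion of cells with Slamf1, Procr or Dntt, Flt3 was detected in 23.7%, 9.80%, 5.65% and 1.88% of kept cells.

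**Figure D1:**
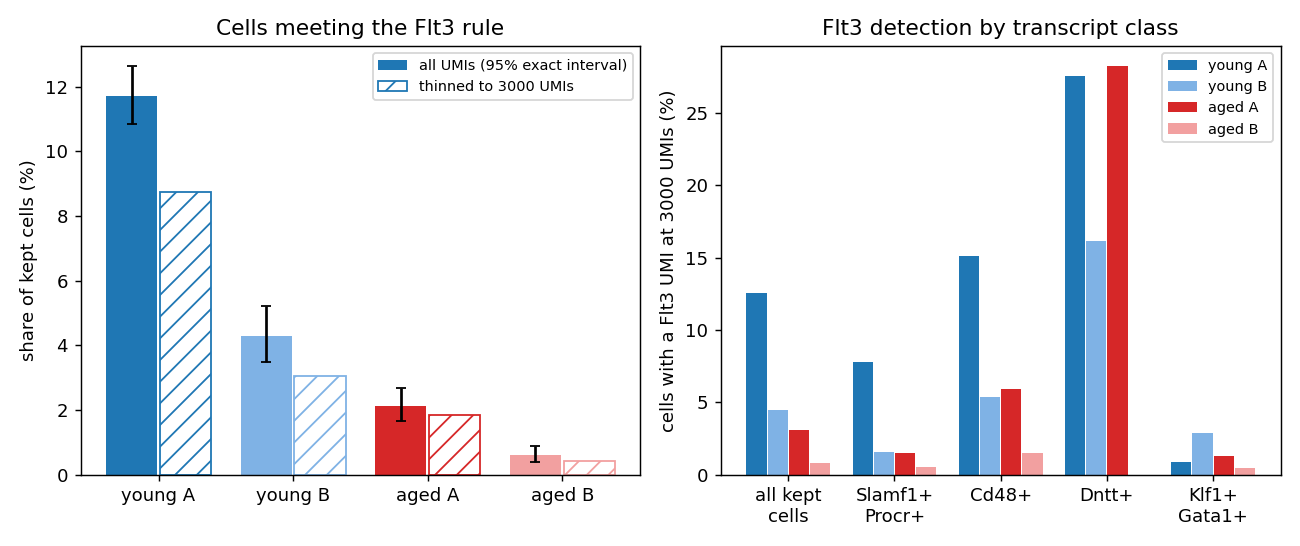
Left, share of kept cells (%) that met the Flt3 rule in each pool, with all UMIs (filled bars, 95% exact binomial intervals) and thinned to 3000 UMIs (hatched bars). Right, share of cells (%) with a Flt3 UMI at 3000 UMIs, among all kept cells and among cells holding the named transcripts, by pool. Both young pools exceed both aged pools on the left, and aged B is the lowest pool or tied for it in every class on the right, with 0 among its 8 Dntt cells.

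Free RNA in droplets can place a Flt3 UMI in a cell that does not express it. Cells with both Klf1 and Gata1, transcription factors of erythroid cells, should lack Flt3. A Flt3 UMI was found in 3.13% of 160 such cells in young A, 9.09% of 44 in young B, 2.67% of 75 in aged A and 2.13% of 47 in aged B, at median depths of 10194, 12109, 7422 and 10538 UMIs. In aged B the erythroid value rests on 1 cell with Flt3 (95% exact interval 0.0539 to 11.3%), and the share of 1.88% over all kept cells lies within that interval. In young B the share of 9.80% and in aged A that of 5.65% also lay within the erythroid intervals, of 2.53 to 21.7% and 0.325 to 9.30%, whereas in young A the share of 23.7% lay above its interval of 1.02 to 7.14%. After thinning, the shares over all kept cells were 12.6%, 4.49%, 3.07% and 0.775% against 0.874%, 2.84%, 1.27% and 0.473% in erythroid cells. Flt3 was 12.6% against 0.874% in young A, and in the other pools the erythroid cells with Flt3 were 1 to 4. Cells marked by other lineages held Flt3 more often in young A, with thinned shares of 9.05% in cells with Pf4 and Itga2b, 10.7% in cells with Mpo and Elane and 4.42% in the 16 cells with Cpa3 and Gzmb.

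Flt3 was not restricted to the cells that met the rule. At 3000 UMIs it was detected in 27.6% of Dntt cells in young A, 16.1% in young B and 28.2% of the 6 such cells in aged A, and in 0 of 8 in aged B (95% exact upper bound before thinning 36.9%). Among cells with Cd48, a surface protein of multipotent progenitors, the shares were 15.1%, 5.39%, 5.92% and 1.52%. Among cells with both Slamf1 and Procr they were 7.80%, 1.56%, 1.48% and 0.525%. The members held 48.2% of all Flt3 UMIs of young A, 45.1% of young B, 38.4% of aged A and 32.5% of aged B.

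Most members met the rule by a single molecule. Of the 800 members, 608 held 1 Flt3 UMI, 143 held 2 and 49 held 3 or more, with a highest value of 5 in young A. Just outside the rule stood 526 cells with Flt3 that were excluded by exactly 1 UMI of Slamf1, Procr or Dntt. In young A the 438 members with 1 Flt3 UMI had 393 UMIs of Cd34 per 1e6 UMIs (CPM) and the 170 members with more had 530 CPM. The same cells had 72.7 and 50.1 CPM of Mllt3, a transcriptional regulator of HSC self-renewal. Genes used as HSC genes here did not all move alike. Gata2 was also lower with more Flt3 UMIs, at 151 and 97.2 CPM. Adgrg1, at 519 and 589 CPM, and Mmrn1, at 25.3 and 36.6 CPM, were higher, and Hlf was level at 188 and 186 CPM. How many HSC genes went each way was not counted. These values come from 1 pool and were not tested.

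Over whole pools, the summed level of Flt3 was 48.0 CPM in young A, 15 in young B, 10.5 in aged A and 2.40 in aged B. The 2 ages did not overlap. edgeR's quasi-likelihood test with the letter as block gave a log2 fold change of -2.46 (SE 0.19, Benjamini-Hochberg adjusted p = 0.0141), and of the 13555 genes tested 2.03% were called, 1.6% higher and 0.428% lower with age. Without the block the adjusted p was 0.462, and without young A it was 0.186 at a log2 fold change of -1.51. Fewer cells with Flt3 and less Flt3 per cell cannot be told apart in these sums.

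Of all 275 genes called with age over whole pools, 0 were called again without the block (1103 at an unadjusted p below 0.05), 0 without aged B (1040) and 4 without aged A, and DESeq2 called all 275. With the block, Dntt fell and Slamf1 rose. Dntt was at 7.41 CPM in young A, 10.2 in young B, 0.337 in aged A and 0.751 in aged B (log2 fold change -4.06, adjusted p = 0.0141 by edgeR). Slamf1 was at 10.3, 9.02, 42.5 and 45.5 CPM (log2 fold change 2.13, adjusted p = 0.0207). Procr, at 96.4, 117, 187 and 201 CPM, did not pass (adjusted p = 0.101 by edgeR, and 0.0324 by DESeq2). Since Slamf1, Procr and Dntt all exclude cells from the rule, the share without exclusions is given above. Most excluded cells with Flt3 held Procr: 574 of 621 in young A, 107 of 124 in young B, 107 of 117 in aged A and 46 of 53 in aged B.

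The first comparison asks how members differ from the 5005 cells of the same pools with no UMI of any of the 4 genes. The members had higher levels of genes of multipotent and lymphoid-primed progenitors and lower levels of erythroid, megakaryocyte and mast cell genes. Of 11090 genes tested on pool sums, 77 were higher and 153 lower in members (2.07% called, edgeR adjusted p below 0.05, 0.694% higher and 1.38% lower), and DESeq2 called 17 and 41. Without young A, which holds most members, 85 genes were called, and without the pool as block 0. Members were deeper in each pool, with a median of 6681 against 5891 UMIs in young A, 7001 against 6202 in young B, 5477 against 5174 in aged A and 8460 against 6475 in aged B. With the comparison cells matched to members by depth, 72 of 6195 genes were called.

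Cd34, the sialomucin that marks short-term stem cells and multipotent progenitors, was at 432 CPM in the members of young A, 332 in young B, 394 in aged A and 167 in aged B. In the comparison cells it was at 251, 222, 132 and 88.5 CPM. Members were higher in 4 of 4 pools, by a log2 fold change of 0.91 (SE 0.09, adjusted p = 1.46e-09, edgeR). Cd48 was at 141, 115, 152 and 58.8 CPM against 83.2, 93.0, 63.9 and 34.3, again higher in 4 of 4 pools (log2 fold change 0.72, adjusted p = 3.36e-06). In the lymphoid-primed list, 9 of 22 tested genes were higher and none lower, with a median log2 fold change of 0.35 against -0.01 over all genes tested. Besides Cd34 and Cd48 these included Emb, Satb1, Cd27, Cd52, Lsp1 and Cd53. At matched depth 4 of 15 genes of the list were higher and none lower, with a median of 0.49. Satb1, a chromatin organizer of lymphoid specification, was at 29.8, 19.8 and 39.2 CPM in the members of young A, young B and aged A and at 0 in aged B, against 14.4, 9.61, 7.92 and 1.32 in the comparison cells. Its log2 fold change was 1.20 (adjusted p = 0.00012, edgeR), with members higher in 3 of 4 pools.

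Genes of the neutrophil and monocyte list were also among the calls, with 5 of 20 higher and 1 lower. Spi1, which encodes PU.1, was at 191, 178, 161 and 154 CPM in members and at 133, 130, 101 and 101 in the comparison cells (log2 fold change 0.53, adjusted p = 8.73e-06 by edgeR and 0.00019 by DESeq2). The members were higher in every pool, and the 4 pools lay close together. Irf8, a factor of monocyte and dendritic lineages, was at 59.2, 15.8, 32.3 and 27.1 CPM against 12.5, 14.2, 14.6 and 16.6 (log2 fold change 1.65, adjusted p = 1.08e-07). It was detected in 59 of the 608 members of young A, 8 in young B, 8 in aged A and 2 in aged B, and 1 cell held 41.7% of its UMIs in young B and 83.3% in aged B. Mpo, the myeloperoxidase of neutrophil granules, was at 584, 792 and 843 CPM in the first 3 pools against 456, 405 and 478, but at 203 against 238 in aged B, where 1 cell held 88.9% of its UMIs in members. DESeq2 did not call Mpo or Irf8 (adjusted p = 0.903 and 0.0613).

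Erythroid genes were lower in members, 12 of 17 tested, with none higher and a median log2 fold change of -2.13. At matched depth 3 of 7 were lower, with a median of -0.72. Klf1 was at 5.96, 0, 4.61 and 9.04 CPM in members and at 31.2, 22.9, 28.9 and 19.7 in the comparison cells (log2 fold change -2.52, SE 0.25, adjusted p = 1.54e-09, edgeR). In young B none of the 96 members held a Klf1 UMI. The 9.04 CPM of aged B came from 1 cell. Gata1 was at 8.95, 5.28, 6.91 and 9.04 CPM against 31.4, 28.1, 32.9 and 23.2 (log2 fold change -1.91, adjusted p = 7.92e-09). Hemoglobin counts were held by few cells: in the comparison cells of young B and aged A, 1 cell held 77.8% and 94.8% of all Hba-a1 UMIs.

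Mast cell and basophil genes were lower in 8 of the 8 tested, and megakaryocyte genes in 8 of 13. At matched depth these counts were 6 of 7 and 2 of 7. Pf4, the platelet chemokine, was at 114, 96.3, 94.5 and 63.3 CPM in members and at 243, 258, 383 and 620 in the comparison cells (log2 fold change -1.58, adjusted p = 1.39e-12, edgeR). Members were lower in 4 of 4 pools. Mcpt8, a basophil protease, was at 370, 33.0, 111 and 0 CPM against 1467, 1847, 950 and 870 (log2 fold change -3.49, adjusted p = 2.17e-12), with 41.9% of its UMIs in the members of young A in 1 cell. When cells with a UMI of Mpo, Elane, Klf1, Gata1, Cpa3, Il7r or Cd79a were left out of both classes, 254, 47, 36 and 18 members remained. Of the erythroid list, 3 of 10 tested genes were then lower and of the mast list 0 of 3. Of the megakaryocyte list 2 of 11 were lower, and 103 genes were called over all lists and other genes. Of the lymphoid-primed list 6 of 18 were higher and 1 lower.

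HSC genes were lower in members than in cells in which none of the 4 genes was detected, 11 of 28, with a median log2 fold change of -0.46. Mllt3 was at 66.3, 44.9, 89.9 and 90.4 CPM against 106, 91.5, 244 and 195 (log2 fold change -0.93, adjusted p = 7.92e-09 by edgeR and 1.1e-06 by DESeq2). Gata2, a transcription factor of stem and progenitor cells, was at 136, 44.9, 161 and 63.3 CPM against 219, 84.0, 241 and 107 (log2 fold change -0.71, adjusted p = 8.47e-08). In both genes members were lower in 4 of 4 pools. The same list gave 10 of 28 lower without the lineage-gene cells and 5 of 23 at matched depth.

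**Figure D2:**
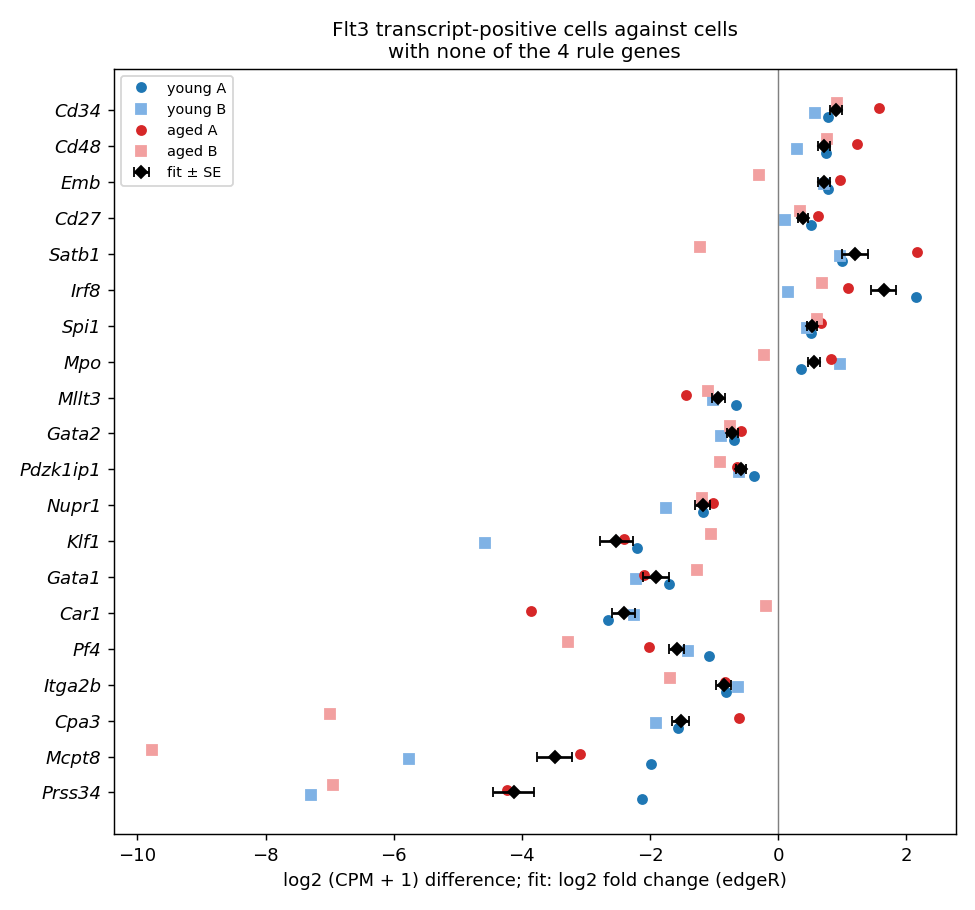
Difference in log2 (CPM + 1) between Flt3 transcript-positive cells and cells with none of the 4 rule genes, for 20 genes, with 1 colored point per pool and the edgeR log2 fold change ± SE as a diamond. Cd34, Cd48 and Spi1 lie above 0 in all 4 pools, and Klf1, Gata1, Pf4 and Mllt3 lie below 0 in all 4.

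Transcripts of the proteins used in the sort were read as a check of identity. Kit was detected in 51.5%, 35.4%, 64.8% and 32.0% of members and Ly6a, which encodes Sca-1, in 54.8%, 64.6%, 56.3% and 56.0%. The list of 10 lineage markers summed to 80.7 CPM in the members of young A, 80.5 in young B, 141 in aged A and 81.4 in aged B. Its most abundant gene in each pool was Ptprc, the pan-leukocyte antigen CD45, so the sum is not a measure of mature cells. In young A Ptprc was at 75.1 CPM in members with 1 Flt3 UMI and 76.3 CPM in those with more. Of the list's genes 3, 5, 5 and 8 were at 0, with Cd8a among them in every pool. Itgam was in 7 members of young A, 4 of young B and 2 of aged A, and Cd4 in 8 of young A and 1 of young B. The T and innate lymphoid list of 14 genes summed to 64.3, 51.5, 89.9 and 36.2 CPM, led by Gata3 in each pool, and 3, 8, 6 and 10 of its genes were at 0. In young A members Lck had 66 UMIs, Thy1 50 and Trbc2 16. A UMI of any of 8 early lymphoid genes, Ighm and Il7r among them, was found in 19.4%, 12.5%, 53.5% and 20.0% of members. In the cells with none of the 4 rule genes the shares were 15.7%, 7.95%, 45.4% and 8.88%. In cells with Slamf1 or Procr and neither Flt3 nor Dntt they were 13.2%, 6.13%, 46.2% and 7.27%. Ighm alone was in 106 of 608 members of young A, 10 of 96 of young B, 36 of 71 of aged A and 5 of 25 of aged B. In aged B 1 member held 52.2% of the Ighm UMIs.

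Genes of the Flt3 pathway were little called. Of 35 tested, 1 was lower (Socs2) and none higher, with a median log2 fold change of -0.01, as over all genes. Flt3l, the ligand, was at 9.37, 10.6, 16.1 and 9.04 CPM in members (log2 fold change -0.44, adjusted p = 0.57, edgeR). Among signal transducers, Stat5a was at 57.3, 29.0, 36.9 and 40.7 CPM and Pik3r1 at 74.1, 50.1, 85.3 and 63.3, and neither passed. Socs2, an inhibitor of cytokine signaling, was at 21.3, 21.1, 6.91 and 4.52 CPM against 35.5, 37.5, 15.5 and 4.24 (log2 fold change -0.78, adjusted p = 0.00358), with members lower in 3 of 4 pools, and DESeq2 did not call it (adjusted p = 0.508).

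Of the other lists, 3 of 43 S phase genes were higher, none of 53 G2/M genes was called, and of 17 immediate early genes 1 was lower. One gene each was called in the interferon (Ifi27, of 23), dendritic (Irf8, of 6), mature B and plasma cell (Cd79a, of 6) and MHC class II (Cd74, of 6) lists, all higher, and none among 8 cell cycle inhibitors and 6 T cell genes. The call of Cd79a rests on 1 member of aged A and 2 of aged B, and in the young pools alone 3 of 5 genes of its list were lower and none higher, with a median log2 fold change of -3.21. Cd74 was at 0.44 on the log2 scale, at -0.53 with at least 2 Flt3 UMIs and at -0.19 without the deepest cells. Of the 28 genes tested that the study names for age on these samples, and so not independent evidence, 3 were higher and 9 lower in members. Among the 10 largest rises that held in all pools were Irf8, Wfdc17, Bex6, Cd34, Ctss, Hmox1, Arl11, Slco3a1 and Cd48, from 1.65 down to 0.72 on the log2 scale. Besides Hba-a1, Hbb-bs, Prss34, Mcpt8 and Klf1, the lowest were Tspo2, Ces2g and Zg16, at -2.80, -2.62 and -2.45.

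The second comparison set members beside the 8109 cells with Slamf1 or Procr and neither Flt3 nor Dntt. Here cell cycle and granule genes were higher in members and HSC genes lower. Of 11298 genes tested, 749 were higher and 695 lower (12.8% called, 6.63% higher and 6.15% lower), and DESeq2 called 370 and 245. Without young A 633 genes were called, and without the pool as block 0. The rule separates these classes by Slamf1 and Procr, which were left out of the test.

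Of the HSC list 25 of 28 tested genes were lower in members and none higher, with a median log2 fold change of -0.90. Mllt3 was at 208, 161, 371 and 363 CPM in the Slamf1 or Procr cells, against the 66.3, 44.9, 89.9 and 90.4 of members. Meg3, an imprinted non-coding RNA of quiescent HSCs, was at 9.80, 13.2, 32.3 and 49.7 CPM in members against 98.9, 106, 210 and 194 (log2 fold change -2.99, SE 0.15, adjusted p = 1.32e-25, edgeR). Members were lower in 4 of 4 pools for both. Hlf, a stem cell transcription factor, differed less, at 187, 185, 237 and 108 CPM against 231, 239, 298 and 216. At matched depth 21 of 23 genes of the list were lower, in the young pools alone 25 of 28 and in the aged pools alone 19 of 28.

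Of the neutrophil and monocyte list 13 of 18 genes were higher and none lower, with a median log2 fold change of 1.91. At matched depth 7 of 11 were higher, with a median of 0.47. Mpo was at 99.3, 71.3, 128 and 21.1 CPM in the Slamf1 or Procr cells, several-fold below the sums of members in every pool (log2 fold change 2.94, SE 0.10, adjusted p = 3.86e-34, edgeR). In aged B most Mpo UMIs of members were in 1 cell, as given above. Ctsg, the granule protease cathepsin G, was at 323, 383, 500 and 163 CPM in members against 72.3, 39.6, 65.4 and 21.3 (log2 fold change 2.74, adjusted p = 1.94e-31, edgeR). In aged B all of its UMIs in members were in 1 cell. Mpo was detected in 268 of 608 members in young A, 37 of 96 in young B, 23 of 71 in aged A and 3 of 25 in aged B.

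Genes of cell division were higher in members against these cells, 39 of 43 S phase genes and 41 of 53 G2/M genes, with no gene lower. Mcm5, a subunit of the replicative helicase, was at 103, 116, 138 and 113 CPM against 69.0, 56.3, 34.8 and 28.5. Top2a, the topoisomerase of dividing cells, was at 176, 149, 73.7 and 222 CPM against 75.9, 93.0, 33.9 and 47.0. Members were higher in every pool for both. At matched depth the counts were 24 of 37 S phase and 6 of 42 G2/M genes. Immediate early genes were lower, 10 of 17, among them Egr1 at 34.5, 1.32, 55.3 and 36.2 CPM against 72.7, 5.58, 150 and 38.6. Cdkn1c, the cell cycle inhibitor p57, was at 27.9, 5.28, 55.3 and 18.1 CPM against 83.2, 10.4, 104 and 26.3 (log2 fold change -1.36, adjusted p = 2.89e-10 by edgeR), below in each of the 4 pools. Of 8 cell cycle inhibitors tested, 1 was called lower (Cdkn1c) and 1 higher (Cdkn2c).

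**Figure D3:**
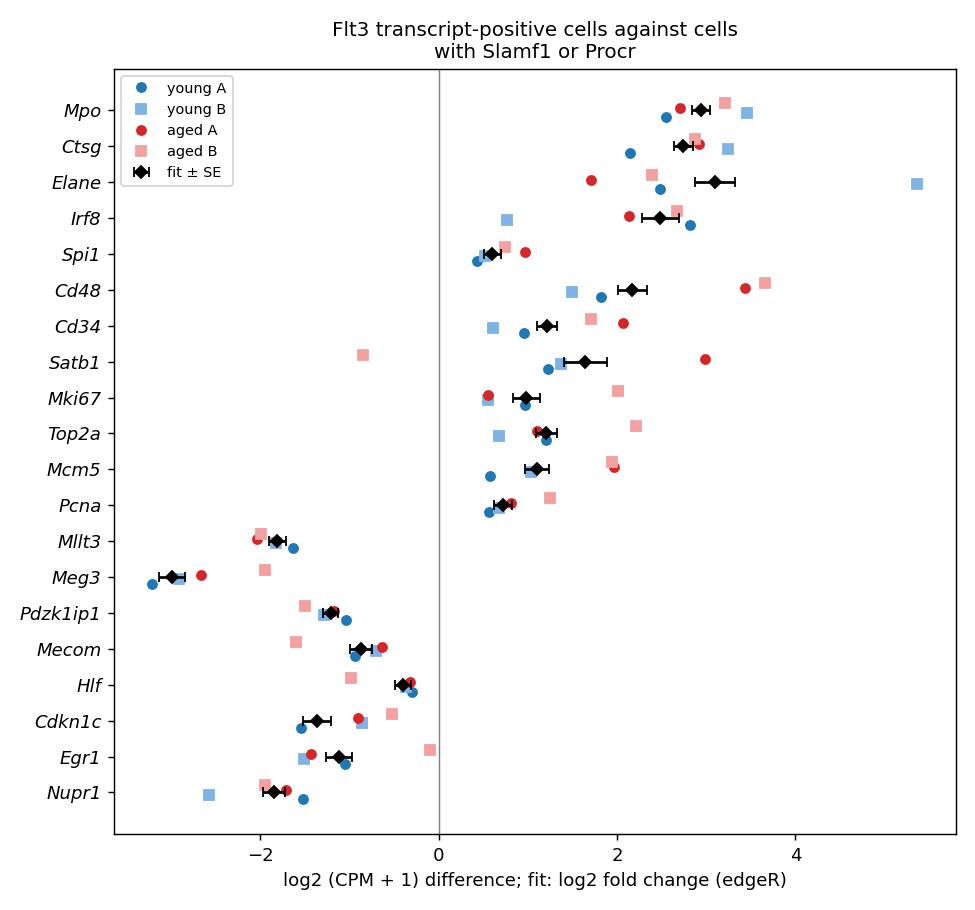
Difference in log2 (CPM + 1) between Flt3 transcript-positive cells and cells with Slamf1 or Procr, for 20 genes, with 1 colored point per pool and the edgeR log2 fold change ± SE as a diamond. Mpo, Ctsg, Cd48, Top2a and Mcm5 lie above 0 in all 4 pools, and Meg3, Mllt3, Pdzk1ip1 and Nupr1 lie below 0 in all 4.

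The lymphoid-primed list gave 8 genes higher and 1 lower of 20 against the Slamf1 or Procr cells. Cd48 was at 39.1, 40.1, 13.1 and 3.73 CPM there, below members in 4 of 4 pools (log2 fold change 2.17, adjusted p = 3.37e-17, edgeR). Mef2c was the gene that was lower. Of the other lists, erythroid genes were lower in 5 of 14, megakaryocyte genes lower in 5 and higher in 1 of 13, mast genes higher in 2 and lower in 1 of 8, and Flt3 pathway genes lower in 5 and higher in 1 of 36.

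The third comparison, with cells holding Dntt, used the young pools only, since aged A had 3 such cells and aged B 6. There were 59 in young A and 27 in young B, and 38 of the 95 Dntt cells over all pools also held Flt3. Of the lists, HSC genes were called higher in members, and lymphoid-primed, T cell and G2/M genes lower. Of 6516 genes tested, 16 were higher and 66 lower (1.26% called, 1.01% lower), and DESeq2 called 2 and 22.

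In the lymphoid-primed list 8 of 19 genes were lower in members and none higher, and in the T and innate lymphoid list 6 of 7 were lower. In the mature B and plasma cell list 2 genes were tested and 1, Ighm, was lower. Ighm was at 37.7 CPM in the members of young A and 18.5 in young B, against 191 and 123 in Dntt cells (log2 fold change -2.43, adjusted p = 3.4e-07, edgeR). Satb1 was at 29.8 and 19.8 CPM against 123 and 91.4 (log2 fold change -2.09, adjusted p = 1.15e-05). Both differences had the same direction in the 2 pools. Ly6d, at 1.07 and 1.32 against 372 and 338 CPM, and Tcf7, at 0.213 and 0 against 52.1 and 68.6, came from few Dntt cells. Ly6d was detected in 6 Dntt cells of young A and 4 of young B, and Tcf7 in 7 and 4.

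Of the HSC list 5 of 18 genes were higher in members than in Dntt cells and none lower. Hlf was at 187 and 185 CPM against 61.7 and 119 (log2 fold change 1.20, adjusted p = 0.00581, edgeR). Meis1, a homeodomain factor of stem and progenitor cells, was at 212 and 133 CPM against 114 and 68.6 (log2 fold change 0.91, adjusted p = 0.027). Ifitm1, an interferon-inducible membrane protein gene, was at 1183 and 1463 CPM against 661 and 1029 (log2 fold change 0.68, adjusted p = 0.000787 by edgeR and 0.00916 by DESeq2). Of these 3 genes, only Ifitm1 passed in DESeq2. Of 46 G2/M genes 17 were lower in members, and 5 of 43 at matched depth. Satb1, chosen here after its values were seen, was at 12.2 and 7.04 CPM in the Slamf1 or Procr cells of the young pools, below members, which in turn were below Dntt cells.

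**Figure D4:**
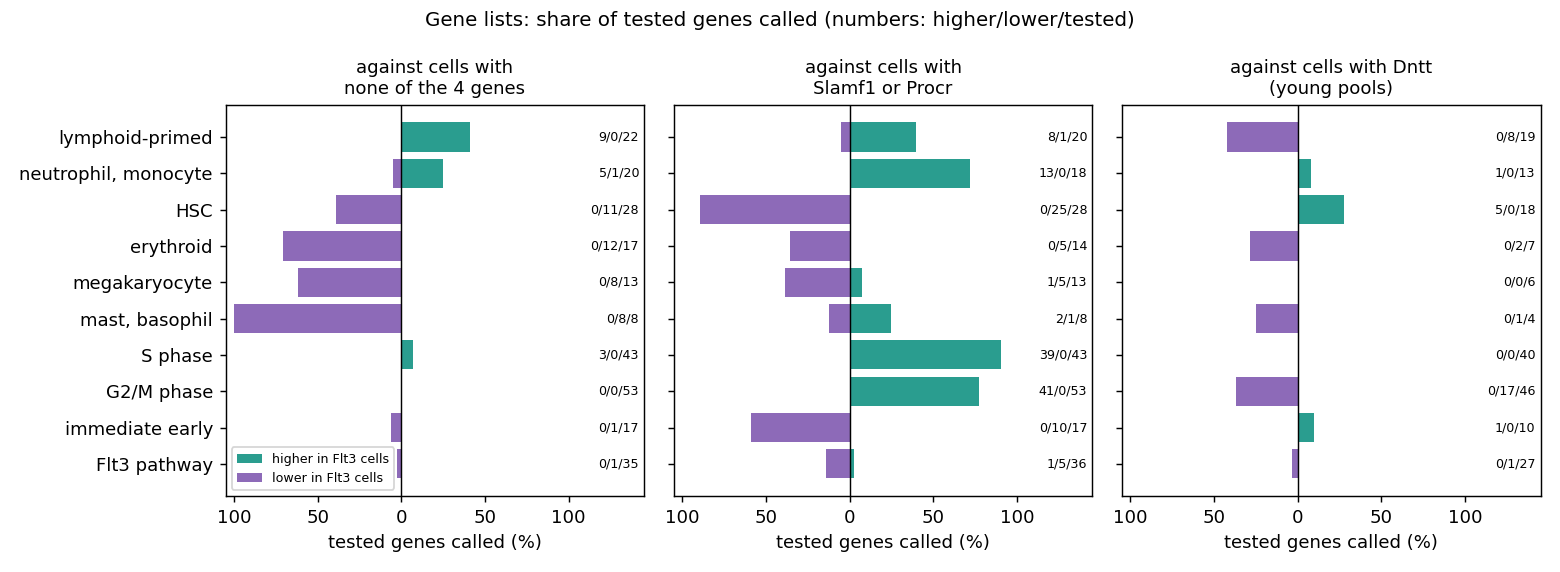
Share of the tested genes of each list (%) called higher (green, to the right) or lower (purple, to the left) in Flt3 transcript-positive cells, in 3 comparisons, with the counts of higher, lower and tested genes at the right of each row. HSC genes are lower against both other classes and higher against Dntt cells, and cell cycle genes are higher against Slamf1 or Procr cells.

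The last comparison asks what differed with age among the members themselves, with 704 young and 96 aged cells in pools of 608, 96, 71 and 25. Few genes were called. Of 6411 tested, 9 were higher in aged members and 0 lower (0.140% called, edgeR), with 169 at an unadjusted p below 0.05, and DESeq2 called 13 higher and 0 lower. With young A left out 40 genes were called, and with young B left out 33. Of the 9 genes, 4 were found across many members, and 5 had most of their UMIs in 1 or 2 cells of each aged pool.

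Nupr1, a stress-responsive chromatin protein gene, was at 5.33 CPM in young A, 3.96 in young B, 131 in aged A and 158 in aged B. It was detected in 18 of 608, 2 of 96, 30 of 71 and 15 of 25 members. The log2 fold change was 4.77 (SE 0.36, adjusted p = 0.0026, edgeR), and the highest cell held 10.5% of its UMIs in aged A and 14.3% in aged B. Aldh1a1, a retinaldehyde dehydrogenase gene, was detected in 42, 6, 28 and 16 members and had a log2 fold change of 3.30 (SE 0.36, adjusted p = 0.0263). Sult1a1, a sulfotransferase gene, was at 8.10, 15.8, 89.9 and 85.9 CPM (log2 fold change 3.06, SE 0.39, adjusted p = 0.0482). It was detected in 34, 9, 18 and 11 members. In aged A 1 cell held 14 of its 39 UMIs (35.9%), and in aged B the highest cell held 21.1%. In all 3 genes the aged pools lay above the young ones without overlap.

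These 3 genes changed in the cells around members too. In the comparison cells with none of the 4 genes Nupr1 was at 13.3 and 15.7 CPM in the young pools and 266 and 364 in the aged pools. Over whole pools its log2 fold change was 4.74 (adjusted p = 0.00565, edgeR), that of Aldh1a1 2.80 and that of Sult1a1 3.10, calls of the whole-pool fit that were lost without the block and without aged B. The difference in age change between members and the cells with none of the 4 genes was 0.33 for Nupr1 (SE 0.31), 0.68 for Aldh1a1 (SE 0.30) and 0.11 for Sult1a1 (SE 0.30), on the log2 scale, and did not pass. In that test 0.21% of 11889 genes were called, 0.168% with a larger and 0.0421% with a smaller change in members. Against those cells, members had lower Nupr1 at each age (log2 fold change -1.18, adjusted p = 3.93e-09, lower in 4 of 4 pools).

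For Jchain, Mzb1, Iglc2, Cd79a and Slpi few cells held most UMIs. Jchain, the joining chain of secreted immunoglobulin, was at 1513 UMIs in aged A, of which 1473 were in 1 cell, and at 995 UMIs in 2 cells of aged B. In all, 1 member of aged A and 2 of aged B held at least 100 UMIs of Jchain, Igkc, Iglc2 and Mzb1 together, the genes of plasma cells, whereas no young member did. An Igkc UMI was in 205 of 608 members of young A, 14 of 96 of young B, 70 of 71 of aged A and 10 of 25 of aged B, and in 678 of 2079, 195 of 931, 947 of 982 and 377 of 1013 of the cells with none of the 4 rule genes. Slpi, a secreted protease inhibitor gene, had 88.6% of its UMIs in 1 cell of aged A and 97.5% in 1 cell of aged B. The mature B and plasma cell list summed to 96.5 CPM in the members of young A, 73.9 in young B, 6286 in aged A and 31102 in aged B, with Ighd at 0 in every pool. Without the 3 immunoglobulin-rich cells 2 genes were called, Nupr1 (log2 fold change 4.76, adjusted p = 0.00714) and Aldh1a1 (3.35, adjusted p = 0.0454), and Sult1a1 missed the threshold (3.06, adjusted p = 0.0884). Cd74, the invariant chain of MHC class II, had 2.26 with these cells and 1.04 without them, and was then not called.

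**Figure D5:**
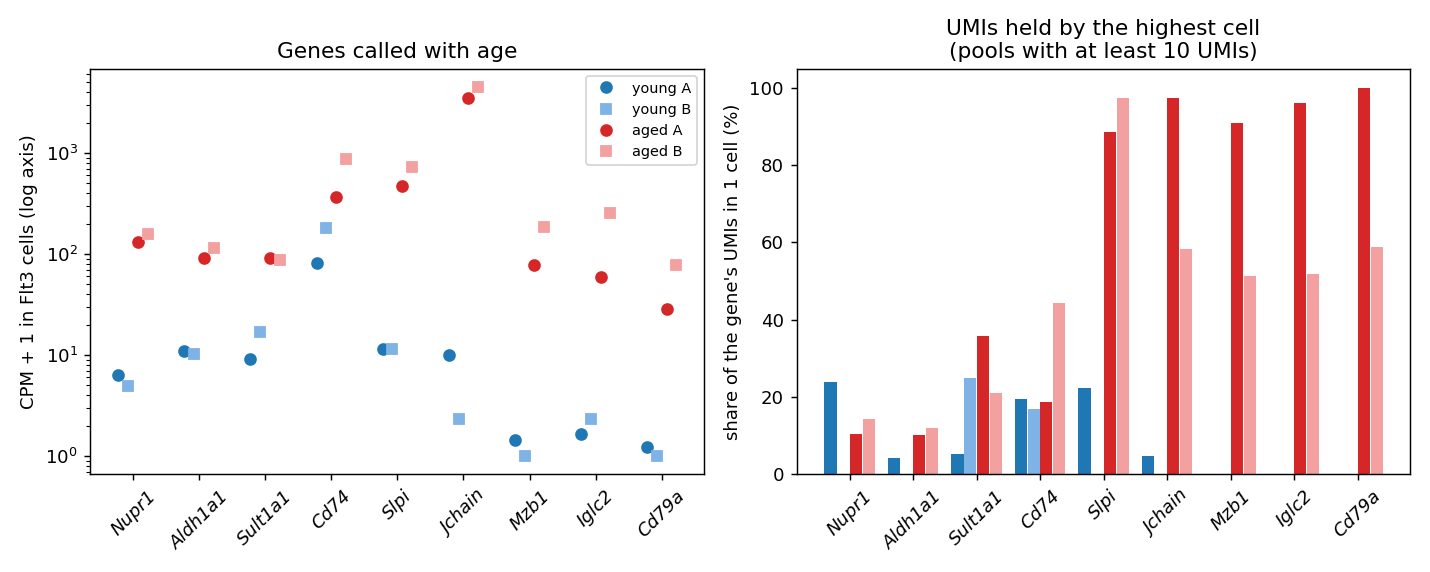
Left, level (CPM + 1, log axis) in Flt3 transcript-positive cells of each pool for the 9 genes called with age. Right, share (%) of the gene's UMIs that the highest single cell holds, in pools with at least 10 UMIs of it. Nupr1 and Aldh1a1 lie apart by age and are spread over cells, while in aged A the highest cell holds at least 88.6% of the UMIs of Slpi, Jchain, Mzb1, Iglc2 and Cd79a.

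By list, 1 of 23 HSC genes (Sult1a1), 3 of 5 mature B and plasma cell genes (Iglc2, Jchain, Cd79a), 1 of 6 MHC class II genes (Cd74) and 1 of 21 genes that the study names for age on these samples (Nupr1) were higher in aged members. None of 16 lymphoid-primed, 15 neutrophil and monocyte, 39 S phase, 43 G2/M, 27 Flt3 pathway and 18 interferon genes was called. Their median log2 fold changes were -0.10, -0.22, -0.03, -0.31, -0.06 and -0.33, beside -0.01 over all genes tested. The members held 4694212 UMIs in young A, 757913 in young B, 433985 in aged A and 221211 in aged B, and changes too small for these sums were not detectable.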

How the data were processed

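Counts were deposited by the authors as UMIs per gene and cell barcode, made with Cell Ranger 2.2.0 (10x 3′ v2 libraries, mm10), per the labels; they are not normalized. The filter on log total UMIs within 2 SD of the pool mean left 5189, 2244, 3328 and 4154 of 15566 barcodes, the cell numbers the study states. Of 28692 gene rows, symbols were used as filed, and coordinates come from GENCODE M21. Doublets were not called, and cells above the 90th percentile of UMIs were left out as an alternative. In that setting 9 genes were called with age in members. Of the 9 genes called with all members, 3 were called again there and 4 had a value. Kept cells of different pools shared 99 barcode sequences, members 0.

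Counts were summed per pool and class, and tested with edgeR 4.0.16's quasi-likelihood test (TMM, filterByExpr, Benjamini-Hochberg adjustment, threshold 0.05), with the pool as block for classes and the batch letter as block for age. The letters pair the pools: the labels give one facility per letter, and deviations from the age means correlated at 0.47 over genes (0.38 in members). Levels are CPM, and per-pool differences use log2 (CPM + 1). DESeq2 was an alternative. Fits were tested on simulated data (200 changed genes). For age in members, 6 of 63 genes with a simulated 2-fold change were recovered, 45 of 69 with 4-fold and 52 of 68 with 8-fold. Of the 110 calls in that simulation 7 were false.

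The members, the 19 gene lists and the tests were chosen with earlier results of these data known. Named genes are list members and, per comparison, the 10 calls of largest size, up and down, that moved alike in every pool (for age, in both batches), at a mean of at least 10 CPM in a group compared, without unnamed gene models. Values of some genes are not reported here. Where nothing else is said, p-values come from fits to pool sums. Each gene's spread between pools was estimated with information shared over genes, because the pools are few. Very small p-values therefore do not rest on the spread between pools of that gene alone. No source used here names the gene annotation. Alternatives are listed in the closing section. Of the samples' other columns, 0 were used.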

Additional observations from a re-analysis of the deposited data

Results flagged for a closer look

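For the genes given here, called by edgeR's quasi-likelihood test, the change with age differed between Flt3 transcript-positive cells and the cells with none of the 4 genes, as the test of the difference itself (25 of 11889 genes called, 0.210%, with 610 at an unadjusted p below 0.05; DESeq2 called 2). The values are differences of log2 fold changes, positive where the aged level rose more, or dropped less, in members. Of progenitor genes, Cd34 had 0.68 and Cd52 0.97. Of genes of other lineages, Pf4 had -1.27, Elane -1.21, Cst3 -0.57, Prg2 3.51 and Ms4a2 1.96, and the immediate early gene Fos had -0.71. At matched depth Pf4 was at 0.0598 and Prg2 at -3.90. Prg2 had 10 UMIs in the members of each aged pool, 7 of them in 1 cell of aged A and 8 in 1 cell of aged B, and 1 cell held 16 of the 17 Ms4a2 UMIs of aged A. For Elane 1 cell held 323 of 628 UMIs in the members of young B and 16 of 17 in aged B, and at matched depth it was at -0.74 and was not called. Fos, at -0.69, and Ms4a2, at 3.37, also lost their calls at matched depth (adjusted p = 0.832 and 0.108, edgeR). Cd34 stood at 432 and 332 CPM in the young and 394 and 167 in the aged members, against 251 and 222 in the young and 132 and 88.5 in the aged comparison cells.

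The immunoglobulin light chain gene Iglc3 had 7.74, Jchain 7.04, Igkc 6.98, Mzb1 6.20, Iglc2 6.17 and Iglc1 4.45. Txndc5 had 1.48, Cd74 0.77, Sec11c 0.67, Slpi 3.50 and Mt2 3.55, with 103 of the 124 Mt2 UMIs of aged B members in 1 cell. Without the 3 members and 21 comparison cells that held at least 100 immunoglobulin UMIs, 10 genes were called, among them Cd34 (0.71, adjusted p = 0.00952), while Cd52 was not (0.48, adjusted p = 0.928). At matched depth neither was called (Cd34 0.50, adjusted p = 0.867, and Cd52 0.47, adjusted p = 0.956), nor any of 17 lymphoid-primed genes. Without the immunoglobulin-rich cells Jchain was at 0.11, Igkc at 0.0382, Iglc2 at -1.41, Mzb1 at 1.46, Cd74 at -0.34, Slpi at 0.36 and Mt2 at 1.64, and none of these was called. At matched depth Jchain was at 4.29, Igkc at 6.51, Iglc2 at 4.92, Mzb1 at 5.19, Cd74 at 0.0638 and Mt2 at 3.77, none called, while Slpi was called (3.16, adjusted p = 0.044 by edgeR).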

How the results depend on the processing

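With 2 pools per age, the exact test of the share gave p = 0.333 under every setting that kept 4 pools, and the difference ran from -10.3 to -2.91 points when 1 pool was left out. Flt3 over whole pools lost its call without the replicate block (-2.39, log2) and ranged from -3.55 to -1.51 with 1 pool left out, where it was called only without young B. The 275 genes called with age over whole pools became 0 without the replicate block, and from 0 (without aged B) to 287 with 1 pool left out. Without the replicate block the count of genes called fell to 0 against cells with none of the 4 genes (233 at an unadjusted p below 0.05), 0 against Slamf1 or Procr cells (992), 1 against Dntt cells, 3 with age in members and 0 for the difference in age change (143). DESeq2 called 58, 615, 24, 13 and 2 in that order, and with matching by depth 72, 431, 83 and 4 were called for the comparisons it was run on. Of the 82 genes called against Dntt cells, 47 were called again at matched depth. With 1 pool left out the counts ran from 85 to 264, 633 to 1405, 7 to 40 with age and 14 to 69 for the difference; the lowest of the first 2 came without young A, and age rose to 40 without young A and 33 without young B. For the Dntt cells this leaves no residual degrees of freedom. Against cells with none of the 4 genes, 113 were called with at least 2 Flt3 UMIs, 103 without lineage-gene cells, 347 without immunoglobulin-rich cells and 80 in aged pools alone. Aged pools alone gave 485 against Slamf1 or Procr cells, and RLE normalization 124 against Dntt cells. With age, 57 were called with no filter on low counts, 108 with no exclusions, 4 with no UMI filter and 2 without immunoglobulin-rich cells. For the difference 10 were called without immunoglobulin-rich cells, 8 of them among the main 25. Single pools left out assume that a lone pool varies like the others. The settings on immunoglobulin-rich cells and on young or aged pools alone were chosen after seeing the data.

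Log2 values turned sign as follows, and the cause was not tested. Against cells with none of the 4 genes, Prss34 was 0.15 and Lmo4 0.30 without lineage-gene cells, Hdc 0.16, Fcgr3 0.18 and Lmo4 0.0101 in aged pools, Mcm5 -0.0325 and Cd74 -0.53 with at least 2 Flt3 UMIs, and Cd74 -0.19 without the deepest cells. Against Slamf1 or Procr cells, Igha was -0.18 without aged A and -0.14 in young pools, Selp 0.12 in young pools, Cdkn2c -0.0595 without young A and -0.0789 in aged pools, Klf1 0.21 in aged pools, and at matched depth Ube2c -0.0637, Prss34 0.0024 and Ckap2l -0.00296. For the difference in age change, Iglc2 was -1.41, Ighm -0.76, Ly6d -0.97 and Cd74 -0.34 without immunoglobulin-rich cells, Iglc1 -0.14, Prg2 -3.90 and Pf4 0.0598 at matched depth, Ighm -0.17 without aged B and Prss34 2.56 without young A. With each pool left out in turn, Igha ran from -0.18 to 2.64, Cdkn2c from -0.0595 to 0.68, and in the difference in age change Ighm from -0.17 to 9.64 and Prss34 from -3.84 to 2.56.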
